A study of Arabidopsis thaliana with 6 samples.

Results

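miR391 is a microRNA (miRNA) of Arabidopsis thaliana that is cut from a single gene, MIR391, and it is described here through both strands of its hairpin, miR391-5p and miR391-3p (ath-miR391-5p and ath-miR391-3p in the tables). The 2 arms are 2 of the 197 miRNA entries in the deposited tables, and they were found by name in all 6 libraries. Small RNA was sequenced from whole seedlings, 14 days old, of the wild type (WT, 3 libraries) and of the mutant aar2-1 (3 libraries). Both genotypes were grown on 1/2 MS medium with 16 h of light and 8 h of dark, and neither the background strain nor the kind of mutation in aar2-1 is given in the labels. In yeast, Aar2 is a factor in the assembly of a spliceosome particle, and the question was whether miRNA abundance differs in the plant mutant.

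Plant miRNAs are cut by the Dicer enzyme DCL1 from a hairpin precursor as a duplex of 2 strands, 1 from the 5′ arm (5p) and 1 from the 3′ arm (3p). One strand is usually kept by an ARGONAUTE protein, where it guides the silencing of complementary transcripts, and its partner is degraded. In Arabidopsis, AGO1 mostly holds small RNAs that begin with U and AGO2 those that begin with A. The RefSeq annotation places miR391 in the miR390 family and gives it no known function. Its relative miR390 is bound by AGO7 and directs the cutting of TAS3 RNA, which starts the production of small RNAs that silence auxin response factors.

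The mature sequences of miR391 and of its relative miR390 are shown because the results compare the arms and the relatives. They were read from RefSeq (TAIR10.1), 5′ to 3′, with the seed (bases 2 to 8) in capitals.
miR391-5p: uUCGCAGGagagauagcgcca
miR391-3p: aCGGUAUCucuccuacguagc
miR390a-5p and miR390b-5p: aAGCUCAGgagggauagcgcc
miR390a-3p: cGCUAUCCauccugaguuuca
miR390b-3p: cGCUAUCCauccugaguucc
Both miR391 arms are 21 bases long. miR391-5p begins with U and miR391-3p with A. Each arm matches the genome exactly at 1 place, so its reads have no second exact source, whereas the miR390-5p sequence matches at 2 places, its genes MIR390a and MIR390b. No other miRNA of the tables shares the seed of either miR391 arm.

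The relation to miR390 is a shifted one. With miR391-5p moved by 1 base, 16 of 20 overlapping bases are identical to miR390a-5p, including an unbroken run of 9 at bases 13 to 21 of miR390a-5p. The differences, counted from 1 at the 5′ end of miR390a-5p with the miR390a-5p base first, are A2U, G3U, U5G and G12A. Aligned without the shift, only 3 bases are identical, so the seeds of the relatives differ. The 3p strands share 13 of 20 bases under a shift of 1.

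MIR391 (AT5G60408) lies on the plus strand of chromosome 5 at chr5:24293093-24293298 (TAIR10.1), and its annotated precursor of 206 bases overlaps no other gene. The nearest gene before it is the protein-coding AT5G60400 on the minus strand, 756 bases away. After it lies SIZ1 on the plus strand, 1405 bases away, which encodes a SUMO ligase with a role in phosphate starvation responses. miR391-5p occupies chr5:24293160-24293180 and miR391-3p chr5:24293211-24293231. The precursor is shown with both arms in capitals.
MIR391 precursor: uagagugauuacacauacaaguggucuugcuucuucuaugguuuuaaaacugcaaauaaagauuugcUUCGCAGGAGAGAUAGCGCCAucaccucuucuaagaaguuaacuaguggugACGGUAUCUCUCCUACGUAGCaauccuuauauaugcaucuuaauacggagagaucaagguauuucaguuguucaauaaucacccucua
In the structure predicted from this sequence, 15 pairs join the miR391 arms, and the last 2 bases at the 3′ end of each arm have no partner within the duplex, the form that a Dicer enzyme leaves. In the uncut precursor those bases pair with bases next to the duplex. The relatives MIR390a and MIR390b had 18 and 17 such pairs. The annotated precursor extends 67 bases beyond the duplex on each side, against 17 bases on each side in MIR390a. The arms are separated by 30 bases in MIR391, 31 in MIR390a and 52 in MIR390b.

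**Figure D1:**
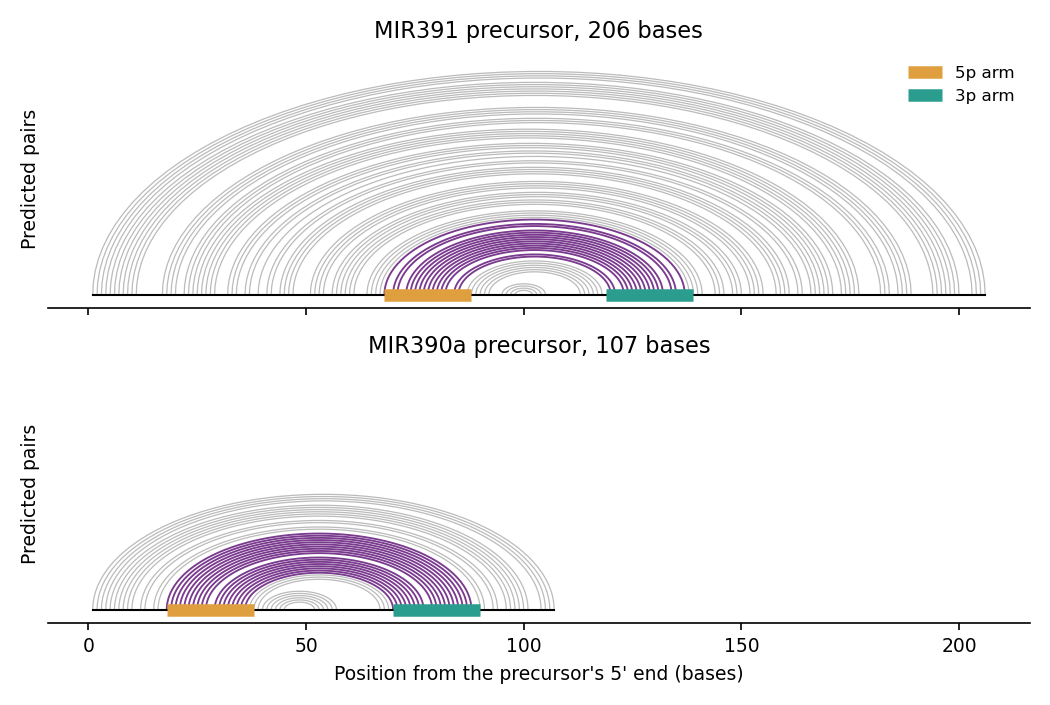
Predicted base pairs of the MIR391 and MIR390a precursors, with the position in bases from the 5′ end on the horizontal axis; each arc is 1 pair, purple arcs join the 5p arm (orange) to the 3p arm (green), and arc height shows only the span. The annotated precursor of MIR391 continues for 67 bases outside the arms on each side, and that of MIR390a for 17.

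The 5p strands of miR391 and miR390 were also compared at the miR390 sites of TAS3. In TAS3 RNA (AT3G17185, chromosome 3), the 2 windows with the most Watson-Crick pairs to miR390a-5p were at bases 609 to 629 and 853 to 873, each with 16 of 21 positions paired. They are shown 5′ to 3′, as RNA, with the paired bases in capitals.
TAS3, first site: GGuGuUAUCCuauCUGAGCUU
TAS3, second site: uuguCUAUCCCUCCUGAGCUa
Within 2 bases of these starts, a range that allows for the shift, miR391-5p paired at no more than 11 and 12 of 21 positions. At the best miR390 window of TAS3b (AT5G49615), miR390a-5p paired at 17 and miR391-5p at 15 of 21 positions. At the second TAS3b window, which starts at base 372, they paired at 14 and 11. These counts describe letters and show no binding.

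The abundance of miR391 was read in RPM, the reads of an entry per 1000000 reads of a common denominator. The denominators implied by the values were 7062198 to 11524176 reads, and all 1182 values were whole multiples of the smallest value of their library within 0.02 reads, and the number of such steps is given below as reads. These reads are inferred from the RPM, and no table of counts was used here. The miRNA entries together made up 4.63 to 5.31% of the denominator in WT and 1.84 to 2.77% in aar2-1. Of the 197 entries, 131 had a mean of at least 1 RPM and were tested with limma on log2(RPM + 1). Both miR391 arms were above 1 RPM in all 6 libraries. The arms were chosen with their values known, the decrease of miR391-5p in aar2-1 and the excess of miR391-3p among them, so their levels, arm ratio and genotype differences are given as a description without p-values.

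miR391-5p had a middle rank among the tested entries in both genotypes and a lower RPM in the mutant. It had 37.8, 25.1 and 33.9 RPM in WT replicates 1 to 3 and 6.94, 4.25 and 2.61 RPM in aar2-1 replicates 1 to 3. Every mutant library lay below every WT library, and the lowest WT value was 3.62 times the highest mutant value. These levels rest on 354, 245 and 288 reads in WT and on 80, 30 and 23 reads in aar2-1. The means were 32.2 ± 6.48 and 4.60 ± 2.19 RPM (SD, n = 3 each), a difference of -27.6 RPM. Among the tested entries, miR391-5p ranked 53 by its mean level in WT and 75 in aar2-1.

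miR391-3p was the more abundant arm in 6 of 6 libraries. It had 77.1, 38.5 and 58.0 RPM in WT replicates 1 to 3 and 17.7, 17.8 and 10.6 RPM in aar2-1 replicates 1 to 3. The genotypes did not overlap for this arm either, although the gap was narrower, with the lowest WT value at 2.16 times the highest mutant value. The read numbers were 723, 376 and 493 in WT and 204, 126 and 93 in aar2-1. The means were 57.9 ± 19.3 and 15.4 ± 4.16 RPM (SD, n = 3 each), and the mean was 3.77-fold lower in the mutant. Within WT, replicate 1 was highest and replicate 2 lowest for both arms, and the median-ratio factor over the miRNA entries had the same order, 1.70, 1.22 and 1.49 in replicates 1 to 3. By its mean level miR391-3p ranked 41 in WT and 53 in aar2-1 among the tested entries. In whole seedlings, fewer cells that make a miRNA and less of it per cell cannot be told apart.

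**Figure D2:**
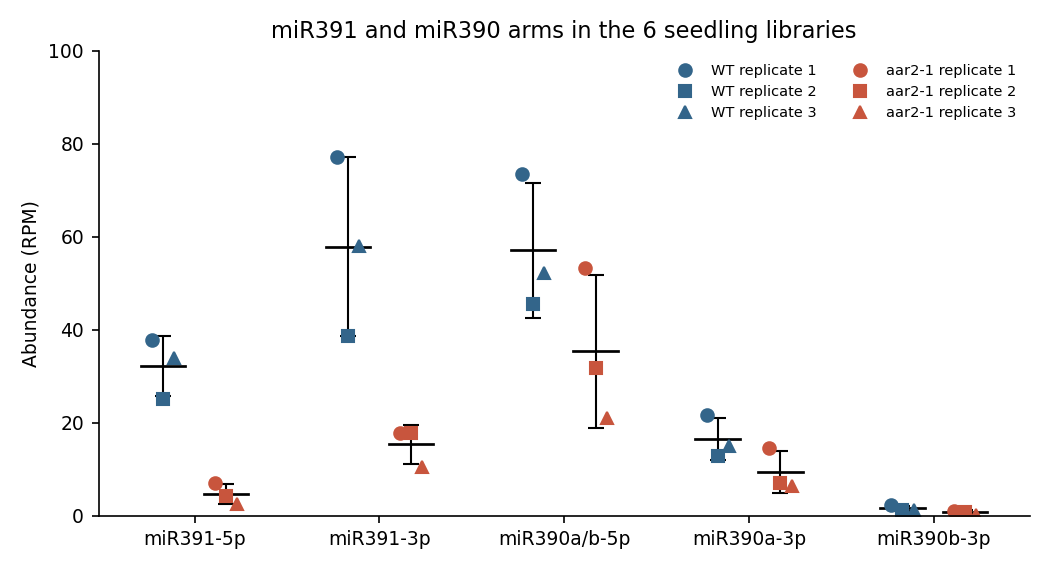
Abundance in RPM (vertical axis) of the miR391 and miR390 entries in WT (blue) and aar2-1 (red); each symbol is 1 library, with the replicate number as its shape, and black lines give the mean and SD of 3 libraries. The aar2-1 libraries sit below all WT libraries for both miR391 arms, whereas the genotypes overlap for miR390a/b-5p and miR390a-3p.

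Most miRNAs were lower in aar2-1, and the miR391 arms are read against that. Both arms were among the 80 of 131 entries that were lower in aar2-1 at a limma adjusted p under 0.05, a background of 61.1%, and 63.4% passed in either direction. All mutant libraries were below all WT libraries for 59.5% of the tested entries. The split of entries past the threshold, 80 lower and 3 higher, was 27 and 22 with a median-ratio factor on RPM, 12 and 55 after centring each library on its median, 16 and 18 after quantile normalization, and 16 and 22 per 1000000 miRNA reads. miR391-5p stayed past the threshold as lower under these 4 scalings, and miR391-3p did not under centring or per 1000000 miRNA reads. Since the arms were chosen on this contrast, nothing is read from their belonging to either group or from the scalings under which they passed. On the log2(RPM + 1) scale, the difference was -2.62 (SE 0.34) for miR391-5p and -1.83 (SE 0.35) for miR391-3p. These were the entries of rank 4 and 16 by decrease, and the median of all tested entries was -0.83. Over the pseudocounts, filters and scalings run, the rank of miR391-5p ran from 3 to 8 and that of miR391-3p from 8 to 26.

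The size of the miR391 decrease depends on the scaling more than its distance from the median of all tested entries does. Measured per 1000000 miRNA reads, miR391-5p had 711, 543 and 641 in WT and 251, 204 and 142 in aar2-1, again without overlap. On the same scale, miR391-3p had 1452, 833 and 1097 in WT and 639.5, 859 and 573 in aar2-1, and the genotypes overlapped. Scalings that adjust for a shift common to the entries moved the median log2 difference of all entries from -0.83 to between 0.014 and 0.52. The highest median was that under centring, which thus moved it past 0. Under these 4 scalings the log2 difference of miR391-5p was between -1.69 and -1.28 and that of miR391-3p between -0.95 and -0.49. Both arms kept a negative sign under each of them.

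**Figure D3:**
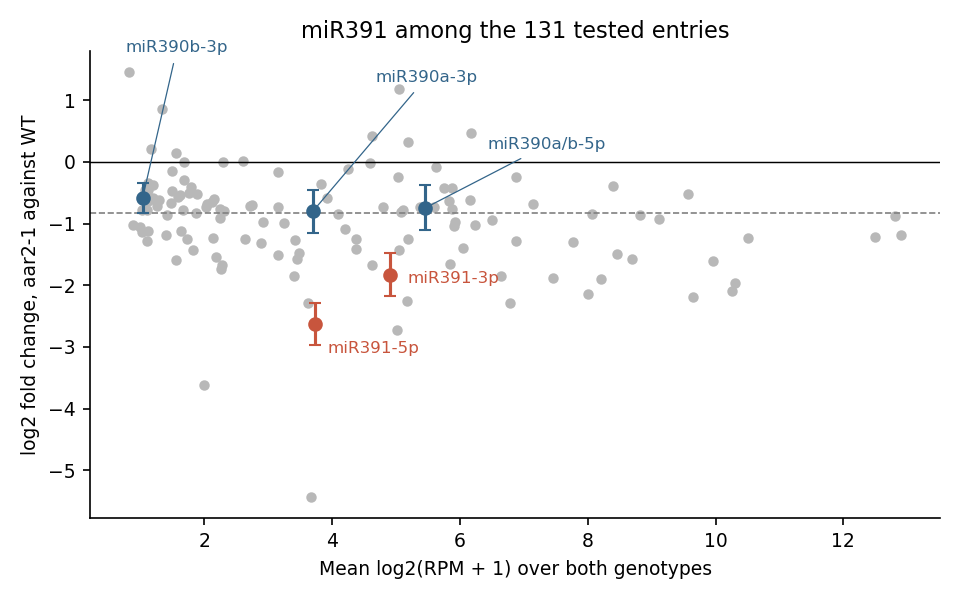
Difference between genotypes (log2 fold change on log2(RPM + 1), vertical axis) against mean log2(RPM + 1) for the 131 tested entries (grey), with the miR391 arms in red and the miR390 entries in blue, bars giving the SE; the dashed line is the median of all entries at -0.83. miR391-5p at -2.62 and miR391-3p at -1.83 lie below that line, and the miR390 entries lie near it.

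The ratio between the arms needs no scaling, because both arms come from the same library. The 3p arm had 2.04, 1.53 and 1.71 times the reads of the 5p arm in WT replicates 1 to 3 and 2.55, 4.20 and 4.04 times in aar2-1 replicates 1 to 3. The ratio was higher in every mutant library than in every WT library. On the log2 scale it was 0.81 ± 0.21 in WT and 1.81 ± 0.40 in aar2-1 (SD, n = 3 each), a difference of 1.00. The 5p arm was thus the one with the larger proportional decrease, from 32.2 to 4.60 RPM or 7.01-fold, against 3.77-fold for 3p.

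As a share of all miR391 reads, the 3p arm made up 67.1% in WT replicate 1 (95% exact Clopper-Pearson interval 64.2 to 69.9%). The share was 60.5% (56.6 to 64.4%) in WT replicate 2 and 63.1% (59.6 to 66.5%) in WT replicate 3. In the mutant it was 71.8% (66.2 to 77.0%) in replicate 1, 80.8% (73.7 to 86.6%) in replicate 2 and 80.2% (71.7 to 87.0%) in replicate 3. The interval of aar2-1 replicate 1, which also had the highest miRNA share of the mutant libraries at 2.77%, overlapped that of WT replicate 1 and, barely, that of WT replicate 3. The intervals of aar2-1 replicates 2 and 3 lay above all WT intervals. They cover counting error only.

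**Figure D4:**
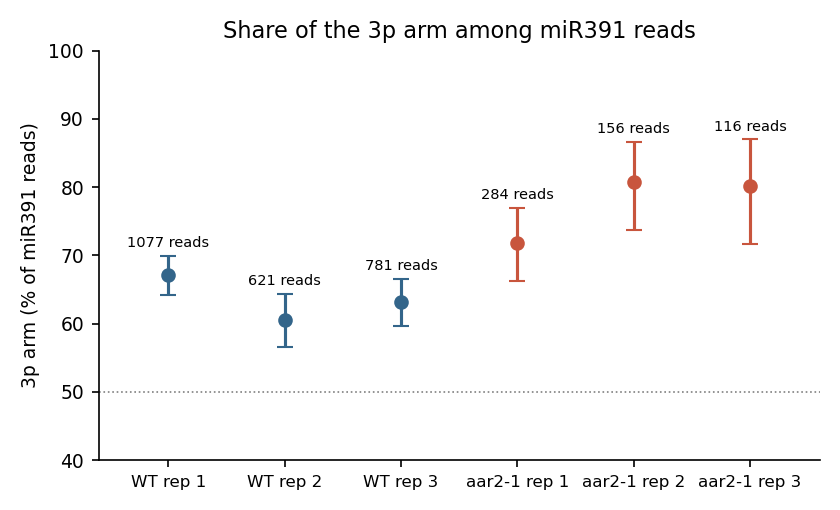
Share of the 3p arm among miR391 reads in percent (vertical axis, from 40 to 100%) for each library; bars are 95% Clopper-Pearson intervals, the reads behind each value are printed above it, and the dotted line marks equal arms. The WT libraries lie between 60.5 and 67.1% and the aar2-1 libraries between 71.8 and 80.8%.

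Other hairpins show how arm ratios varied between the genotypes. Of 43 hairpins with an entry for each arm, 29 had a mean of at least 1 RPM for both, and their ratios were computed with 0.5 read added to each arm. An entry can join genes with the same mature sequence, and 15 of the 29 have such a joint entry on at least 1 arm, so their ratios set strands of several genes against each other; both miR391 entries hold 1 gene only. In WT, the 3p arm was the more abundant one in 14 of the 29 and the 5p arm in 15. The ratio of 3p to 5p was higher in all mutant libraries than in all WT libraries for 5 hairpins (17.2%), miR391 among them, and 41.4% had no overlap in either direction. The change of miR391 on this measure was 0.99 and ranked 5 of 29, against a median of -0.16 and quartiles of -0.68 and 0.23. Among the 14 hairpins with 1 gene per entry, 2 had a ratio that was higher in this way, miR391 and miR396b. The other hairpins with a ratio that was higher without overlap were miR396b (2.43), miR393a (1.62), miR167a (1.20) and miR168a (0.23). Of these, miR393a alone shares with miR391 a 3p arm that was already the more abundant one in WT. The 3p arm of miR393a had a mean of 20.4 RPM in WT and 28.1 RPM in aar2-1, whereas that of miR391 was lower in the mutant. The 5p side of miR393a is the joint entry of miR393a-5p and miR393b-5p. It had a mean of 2.21 RPM in WT and 0.877 RPM in aar2-1, with as few as 4 reads in a library. That side reached the minimum of 1 RPM through its WT values.

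The hairpins with a mean arm ratio nearest to that of miR391 were miR408, miR824 and miR171b. The log2 ratio of miR408, a copper-responsive miRNA, was 2.20 ± 0.24 in WT and 1.25 ± 0.09 in aar2-1, a change opposite in direction to that of miR391. The ratio of miR824, which targets the MADS-box gene AGL16, was -0.09 ± 0.44 and 0.22 ± 0.23, with overlap between genotypes. The ratio of miR171b, which targets GRAS-domain genes, was 2.92 ± 0.25 and 2.21 ± 0.59, also with overlap. Its 3p side joins miR171b-3p and miR171c-3p, and its 5p side had a mean of only 1.81 RPM in WT and 0.866 RPM in aar2-1. The mean ratio in aar2-1 was thus lower for miR408 and miR171b and higher for miR824, by 0.31.

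**Figure D5:**
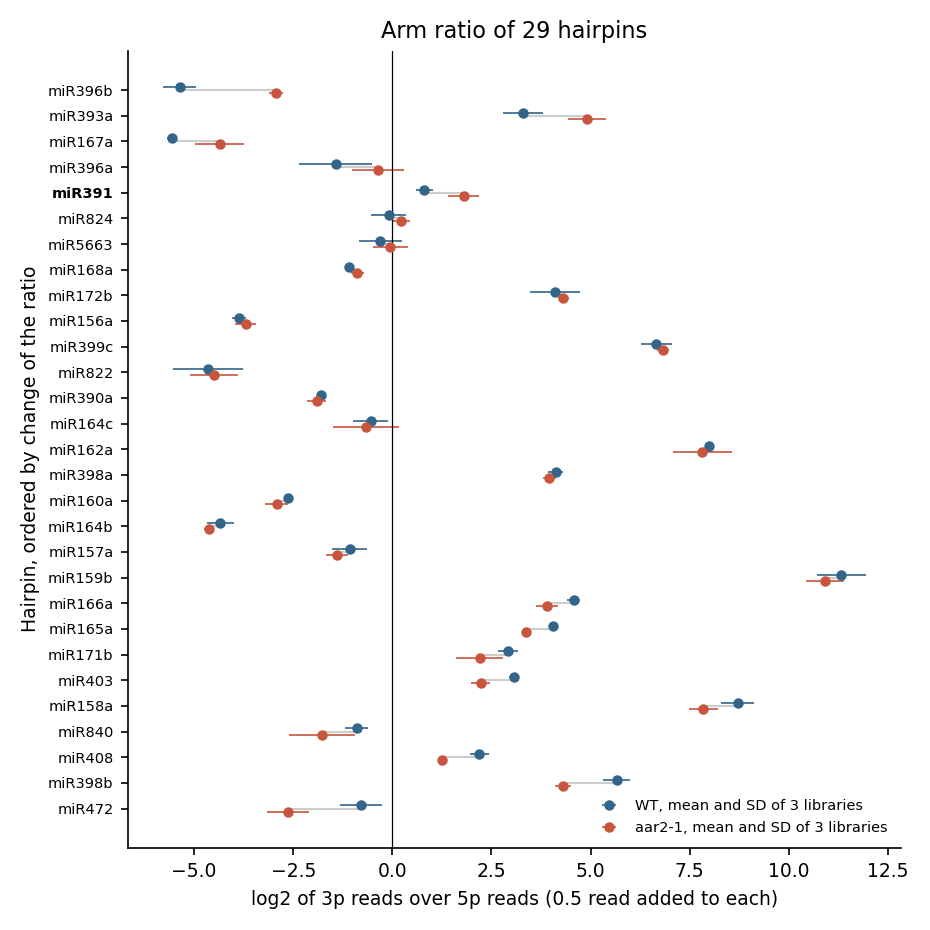
log2 ratio of 3p to 5p reads, with 0.5 read added to each arm (horizontal axis), for 29 hairpins in WT (blue) and aar2-1 (red); points are means and bars SDs of 3 libraries, and hairpins are ordered by the change, aar2-1 minus WT. miR391 is at rank 5 from the top with a change of 0.99, and the changes of all hairpins run from -1.85 to 2.43.

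The relative miR390 was compared entry by entry, because it shares sequence but not its genes with miR391. The joint entry of miR390a-5p and miR390b-5p had 73.4, 45.6 and 52.2 RPM in WT and 53.3, 31.9 and 21.0 RPM in aar2-1, and the genotypes overlapped. Its log2 difference was -0.74 (SE 0.36, limma adjusted p 0.0825). The entry miR390a-3p had 21.6, 12.9 and 14.9 RPM in WT and 14.6, 7.08 and 6.47 RPM in aar2-1, with overlap and a log2 difference of -0.80 (SE 0.35, limma adjusted p 0.0551). The entry miR390b-3p had 2.24, 1.23 and 1.18 RPM in WT and 1.04, 0.850 and 0.227 RPM in aar2-1, without overlap. It was the 1 of 3 miR390 entries past the threshold, where 61.1% of all tested entries passed as lower, with a log2 difference of -0.59 (SE 0.25, limma adjusted p 0.0488). That entry reached the minimum for testing through its WT values and held 2 to 21 reads per library. Its limma adjusted p was 0.0871 without aar2-1 replicate 2 and 0.269 without aar2-1 replicate 3, and without WT replicate 1 it was not tested. The joint miR390-5p entry passed without WT replicate 2 (limma adjusted p 0.0438) or without aar2-1 replicate 1 (0.00510), and so did miR390a-3p (0.0366 and 0.00275). Most entries passed as lower in those fits, 92 of 131 without WT replicate 2 and 107 of 132 without aar2-1 replicate 1. Under the 4 scalings, the differences of miR390-5p and miR390a-3p turned positive, between 0.09 and 0.60 and between 0.19 and 0.54. That of miR390b-3p ran from -0.12 to 0.75. The median of all tested entries also turned positive under these scalings, between 0.014 and 0.52, the highest under centring. After centring on the library median, 55 of the 131 tested entries passed as higher in aar2-1, and the median of all was 0.52. Among those that passed were miR390b-3p (0.75) and the joint miR390-5p entry (0.60), each with a limma adjusted p of 0.0418.

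The balance between the relatives is also free of scaling. The miR391 arms together had 1.18, 1.07 and 1.34 times the RPM of the miR390 entries together in WT replicates 1 to 3, and 0.358, 0.555 and 0.475 times in aar2-1 replicates 1 to 3. miR391 thus had the higher summed RPM in each WT library and the lower one in each mutant library. For the 5p strands alone, miR391-5p had 0.515, 0.551 and 0.649 times the level of miR390-5p in WT and 0.130, 0.133 and 0.124 times in aar2-1. The level of miR391-3p in WT, 57.9 ± 19.3 RPM, did not differ beyond its spread from that of miR390-5p, 57.1 ± 14.5 RPM, while in aar2-1 the means were 15.4 ± 4.16 and 35.4 ± 16.4 RPM. The log2 ratio of miR390a-3p to the joint 5p entry of MIR390a and MIR390b was -1.79 ± 0.03 in WT and -1.91 ± 0.24 in aar2-1, with overlap between genotypes. Because 2 genes give that 5p strand, this is not the ratio within 1 hairpin. The differences between miR391 and miR390 were not tested, because the values of miR391 had chosen it.

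The entries with the profile most like each arm were named by the Euclidean distance between log2(RPM + 1) profiles over the 6 libraries, each centred on its mean. For miR391-5p the nearest were miR827 (distance 0.731), miR399b/miR399c-3p (0.754), miR168b-3p (0.826), miR396b-5p (0.832) and miR162a-3p/miR162b-3p (0.844), against a median of 2.31 over all other tested entries. For miR391-3p they were miR824-3p (0.591), miR5654-3p (0.661), miR822-5p (0.669), miR396b-5p (0.677) and miR399a (0.685), against a median of 1.46. miR827 and miR399 are known from phosphate homeostasis, miR162 targets DCL1, and miR396 targets growth-regulating factors. A near profile to a lowered arm is itself a lowered one, so the shared direction follows from the measure.

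The arms of miR391 were not each other's nearest profiles. Their distance was 1.11, which placed miR391-3p at rank 8 among the profiles near miR391-5p, and miR391-5p at rank 31 among those near miR391-3p. Only miR396b-5p was among the 5 nearest of both arms. It had 2770, 2028 and 2788 RPM in WT and 1008, 619 and 428 RPM in aar2-1. The nearest profile to miR391-5p, that of miR827, had 116, 50.7 and 92.4 RPM in WT and 14.5, 9.77 and 10.7 RPM in aar2-1. The nearest to miR391-3p, that of miR824-3p, had 25.0, 11.8 and 19.0 RPM in WT and 7.98, 4.67 and 3.97 RPM in aar2-1.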

How the data were processed

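The authors deposited 1 table per library, and the deposited values are in RPM for 197 miRNA entries. The unit was inferred from whole multiples of the smallest value, and which reads form the denominator is not given in the sources used here. Per the submitters' processing notes, cutadapt, Bowtie and the build TAIR10 were used; versions and the treatment of reads with several matches are not given. Per the labels' protocols, libraries were made with a NEBNext kit. Adapter ligation acts on each strand's own sequence, and its part in the arm ratio and in the ratio of miR391 to miR390 was not tested.

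Genotype and replicate were taken from the sample titles. The arms and lists were chosen with earlier results of these data known. Entries with a mean of at least 1 RPM were tested with limma 3.58.1 (R 4.3.3, variance trend, two-sided, Benjamini-Hochberg over 131 entries, pseudocount 1 RPM) on genotype. The fit was tested on simulated data that held no shift common to the entries, so that test does not bear on the choice of scaling. Sequences came from RefSeq (TAIR10.1), where all 242 miRNA names matched; no deposited coordinate was used. RNAfold 2.7.2 gave structures. The entries named were both miR391 arms, all miR390 entries, the 5 nearest profiles per arm and the 3 hairpins nearest in arm ratio; the 4 other hairpins with a higher ratio were named after their values were seen. Python 3.11.15 was used. Alternatives covered the pseudocount, low-value filter, scaling, replicate block and each library left out.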

Additional observations from a re-analysis of the deposited data

How the results depend on the processing

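Neither miR391 arm changed sign under any alternative run. The log2 difference of miR391-5p (-2.62) was -1.97 with a pseudocount of 5 RPM, -1.67 with a median-ratio factor on RPM, -1.28 after centring on the library median, -1.62 after quantile normalization and -1.69 per 1000000 miRNA reads. That of miR391-3p (-1.83) was -0.79, -0.49, -0.95 and -0.69 under the same 4 scalings. These 4 scalings adjust for a shift common to the entries, but centring left the median of all tested entries positive, at 0.52. With each library left out in turn, miR391-5p ran from -2.91 to -2.35, miR391-3p from -2.09 to -1.59 and the arm ratio difference (1.00) from 0.88 to 1.24, the highest without aar2-1 replicate 1. The arm ratio difference was 0.80 on log2(RPM + 1) and 0.83 from summed reads.

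Past the threshold were 83 entries, against 45 under a minimum mean of 10 RPM, which left 69 to test, 98 with no filter, and 62 to 109 with 1 library left out; the scalings, whose splits are given above, turned most calls to higher under centring. The replicate numbers were not shown to pair the libraries: same-numbered deviations correlated at 0.489, 0.0475 and -0.151. With the replicate block, 98 entries passed, the arm differences and the arm ratio difference were again -2.62, -1.83 and 1.00, and the miR390 entries had limma adjusted p-values of 0.0312, 0.0208 and 0.020. The planned count tests in edgeR were not run, because the files hold RPM and the reads are only inferred from it; the exact intervals of the arm shares rest on the same inferred reads. In aar2-1, 23 to 80 such reads per library limit the precision of miR391-5p.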
